A study of Mus musculus with 7 samples.

Results

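The mitosis and spindle genes are 45 genes that drive entry into mitosis, build the spindle, hold chromosomes on it, check their attachment and divide the cell. They were chosen by name and found by Ensembl gene identifier in the deposited tables, and all 45 were found among the 13641 genes with a transcript start or end event. RNA was sequenced from mouse neural cells derived from the wild-type embryonic stem cell line B6G-2, in a series that asks how insecticides disturb neural development. Stem cells formed embryoid bodies for 6 days, progenitors were expanded with bFGF and EGF, and progenitors of day 14 were moved to BrainPhys medium with B27, in which the exposed cultures met an insecticide for 1 day. There was 1 library each for chlorpyrifos, DDT, rotenone, carbaryl, deltamethrin, imidacloprid and an unexposed control. The labels used here give no dose, solvent or batch, and their tissue field reads brain. Groups of 1 library allow no replicate check and no p-value, and all 6 comparisons share the control library.

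A dividing cell makes most of these transcripts late in its cycle. Cyclins A and B bind CDK1 and carry the cell through G2 into mitosis, Aurora and Polo kinases shape the centrosomes and spindle, and kinetochore proteins attach chromosomes to microtubules. The spindle checkpoint then holds back the anaphase promoting complex, and release of that complex through CDC20 and UBE2C destroys cyclin B and lets the chromosomes part. In neural progenitors these transcripts mark the cycling fraction, and their levels go down as cells leave the cycle to become neurons or glia. In a bulk culture, fewer cycling cells and less RNA per cycling cell cannot be told apart.

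Each value is in FPKM, fragments scaled to transcript length and library size. A gene's FPKM was summed over its distinct transcript starts and, separately, over its distinct transcript ends, and the mean of the 2 totals was its level. A level was used for folds where both ends were listed, where their log2 values lay within 0.3 of each other on average over the 7 libraries, and where the mean was at least 1 FPKM. That held for 27 of the 45 mitosis genes and for 6299 genes in all. Of the other 18 mitosis genes, 7 had unequal ends, 10 had an end total under 5% of the start total, or none, and 1 had no start total. None was left out for a low level. A fold is the difference of log2(FPKM + 1), insecticide minus control, so that a value of 0.585 is 1.5-fold.

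The cultures carried markers of the labelled cell type. Summed FPKM of the neural progenitor markers was 1225 to 1498 in the exposed libraries and 1344 in control, with 6 of 8 markers averaging 1 FPKM or more. Sox1 and Sox2 were not listed by the match to exon boundaries. That match used boundaries of spliced transcripts only, so a gene without introns could not be matched. Summed neuronal markers were 384 to 454 in the exposed libraries and 409 in control, with 9 of 10 markers averaging 1 FPKM or more. Astrocyte markers summed to 327 to 2778 in the exposed libraries and 2863 in control, and without Fabp7 to 242 to 272 and 243. Of these 9 markers 6 averaged 1 FPKM or more, and Gfap, Aqp4 and S100b did not. Fabp7 alone was at 2452 FPKM with chlorpyrifos, 1398 with DDT, 66.2 with rotenone, 762 with carbaryl, 1295 with deltamethrin and 2521 with imidacloprid, against 2620 in control. Of 6 endoderm and 6 microglia markers 1 each was listed, and of 8 pluripotency markers 4. Since Sox2 and Tubb3 were not listed in these neural cells either, an unlisted marker in these tables does not show that the gene was silent. The libraries listed 93977 to 95776 distinct events each, and their read depth is unknown.

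Transcripts of mitosis were plentiful in all 7 libraries. Summed over all members with a start, they made up 0.473% of the start FPKM with DDT, 0.496% with rotenone, 0.506% with chlorpyrifos, 0.512% with deltamethrin, 0.529% with imidacloprid and 0.531% with carbaryl, against 0.517% in control. Their share of the end FPKM was 0.568% with DDT, 0.575% with rotenone and 0.615% with imidacloprid, against 0.617% in control. It was 0.620% with carbaryl, 0.622% with chlorpyrifos and 0.629% with deltamethrin. DDT and rotenone were thus below control at starts and at ends, whereas chlorpyrifos, deltamethrin and imidacloprid changed sides. Ube2c, the ubiquitin carrier of the anaphase promoting complex, was the highest of the 27 genes at a mean of 145 FPKM over the 7 libraries. It was followed by cyclin A2 (Ccna2, 74.5), the passenger protein survivin (Birc5, 70.1), Polo-like kinase 1 (Plk1, 60.2) and the checkpoint target Cdc20 (54.5). The lowest were the kinesin Kif18a at 9.14, the kinetochore subunit Spc25 at 11.3, the kinetochore motor Cenpe at 12.6 and the checkpoint kinase Ttk at 12.8. Ube2c ranged over 137 to 159 FPKM and overlapped no other of the 27 genes, whereas the ranges of Ccna2 (63.5 to 80.8) and Birc5 (64.9 to 78.2) overlapped each other.

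The mitosis genes were lower, by a small amount and in most members, with DDT and with rotenone. With DDT 21 of 27 genes were lower than in control, where 47.6% of all genes were lower, and the median log2 difference was -0.12 against 0.01 for all genes. With rotenone 23 of 27 were lower, where 49.0% of all genes were lower, and the median was -0.17 against 0.01. With deltamethrin 18 of 27 were lower, against 49.3% of all genes, with a median of -0.06. Chlorpyrifos had 14 of 27 lower (50.0% of all genes) and carbaryl 15 of 27 (50.1%), each with a median of -0.01. With imidacloprid 10 of 27 were lower (46.7% of all genes), 17 were higher and the median was 0.04. Summed markers of several cell types differed in the same 2 libraries, and the astrocyte sum also in others. The part of these markers in the mitosis values was not tested. The rotenone library was lowest in summed astrocyte markers, at 327 FPKM, against 2863 in control. Carbaryl (1034) and deltamethrin (1537) were below DDT (1656) in this sum. Without Fabp7 the sums were 261 with rotenone, 258 with DDT, 272 with carbaryl and 242 with deltamethrin, against 243 in control. Rotenone was also lowest in summed progenitor markers (1225, against 1344 in control) and neuronal markers (384, against 409). Gene by gene this did not hold. Of 3 progenitor markers kept for folds, 2 were higher with rotenone and 1 lower (median 0.17). Of 4 neuronal markers kept, 2 were higher and 2 lower (median 0.06). Rotenone was highest in summed fibroblast and mesenchyme markers, at 37.5 FPKM, with 25.6 to 28.8 for the other insecticides and 29.0 in control. Each of the 8 fibroblast markers averaged 1 FPKM or more over the 7 libraries. The DDT library was lowest in summed markers of the oligodendrocyte lineage, at 138 FPKM, with 185 to 201 for the other insecticides and 192 in control. Of these 8 markers 7 were listed and Olig1 was not, by the match to exon boundaries of spliced transcripts.

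**Figure D1:**
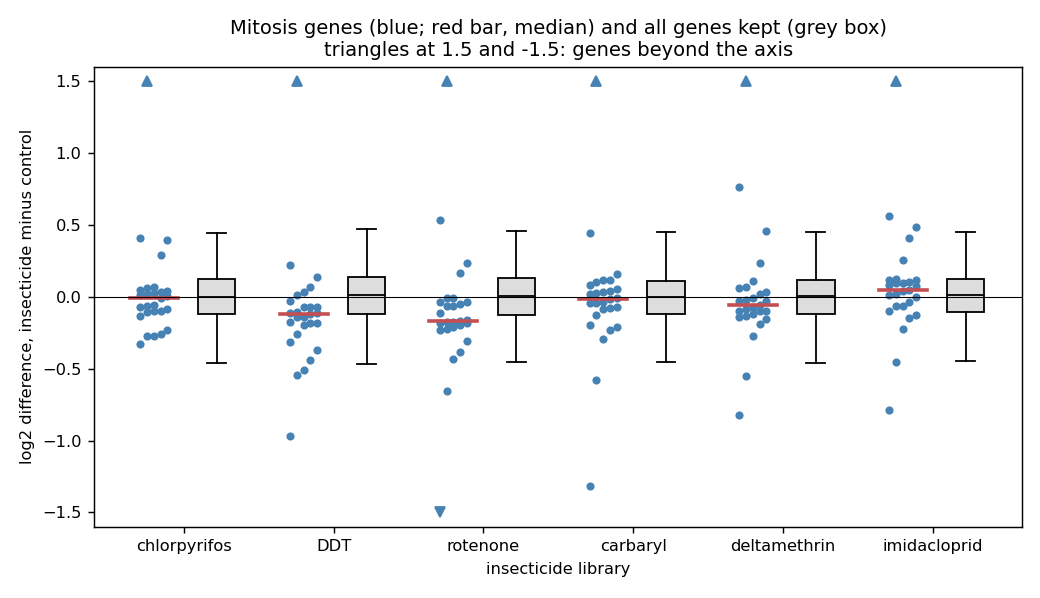
Difference from control, insecticide minus control on the log2(FPKM + 1) scale (vertical axis), for the 27 mitosis genes (blue points, red bar at their median) and for all genes kept (grey box from the first to the third quartile, whiskers at percentiles 5 and 95) in each of 6 insecticide libraries; triangles are genes beyond the axis. The red bar lies at -0.12 with DDT and -0.17 with rotenone, and within 0.06 of 0 in the other 4.

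Few members passed 1.5-fold in any comparison. With chlorpyrifos 1 gene was higher by that much and 0 were lower, where 2.66% and 3.24% of all genes were. DDT had 1 higher and 1 lower, against 3.4% and 3.38% of all genes. Rotenone had 1 higher and 2 lower (3.06% and 3.27% of all genes), carbaryl 1 and 1 (3.1% and 3.23%), deltamethrin 2 and 1 (2.97% and 3.22%) and imidacloprid 1 and 1 (3.17% and 2.82%). A count of 1 is 3.70% of the 27 members, close to the shares of all genes. A count of 2, as for rotenone lower and deltamethrin higher, is 7.41% and above those shares. The gene that was higher was Mzt2 in every comparison, joined by Cdk1 with deltamethrin. The genes that were lower were Ccnb1 with DDT and imidacloprid, Kif22 and Spc25 with rotenone, Spc25 with carbaryl and Cenpe with deltamethrin. Apart from Ccnb1 with DDT and Kif22 and Spc25 with rotenone, each of the members that were lower in these 2 comparisons differed by less than 1.5-fold.

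The libraries were also ranked for each gene. The DDT library was the lowest of the 7 for 10 of the 27 genes, or 37.0%, where it was lowest for 15.1% of all genes. The rotenone library was lowest for 8, or 29.6%, against 16.1% of all genes. The imidacloprid library was highest for 13, or 48.1%, against 15.1% of all genes, and lowest for 0, against 12.1% of all genes. Control was highest for 6 genes (22.2%, against 12.8% of all genes), namely Mki67, Aurka, Cenpe, Cenpf, Cdc20 and Spc25. It was lowest for Cdk1 and Mzt2 (7.41%, against 13.8% of all genes). Set directly against imidacloprid, which leaves the control out, the DDT library had 25 of 27 genes lower with a median log2 difference of -0.18, and the rotenone library 23 of 27 lower with a median of -0.18. Over the 15 pairs of exposed libraries the size of the median ran from 0.003 to 0.18, and over the 6 pairs with control from 0.01 to 0.17. The medians between insecticides thus spanned about the same sizes as those between an insecticide and control.

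**Figure D2:**
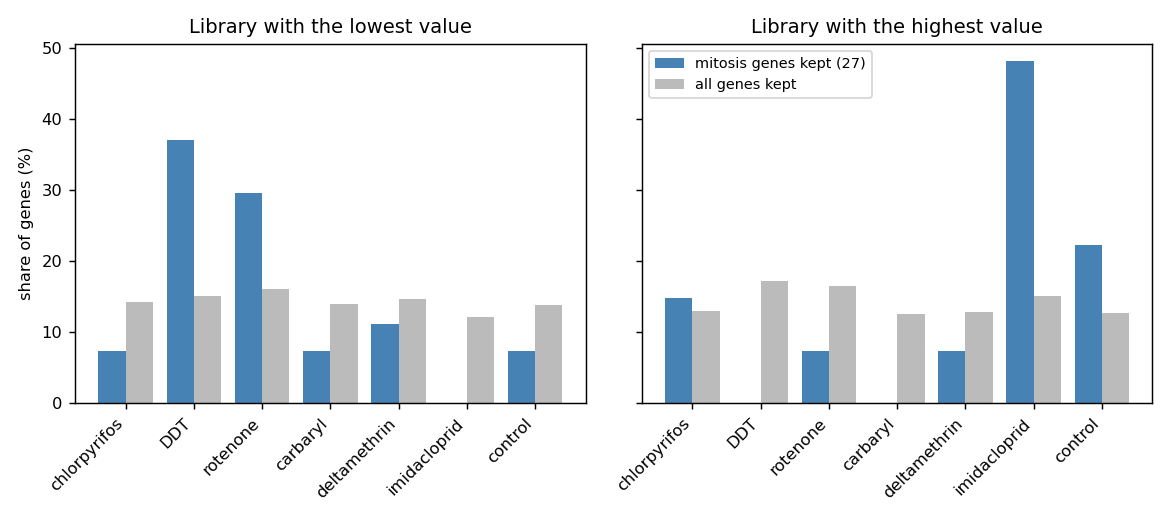
Share of genes (vertical axis, %) for which each library held the lowest value (left panel) or the highest value (right panel) of the 7, for the 27 mitosis genes (blue) and all genes kept (grey). The blue bars reach 37.0% for DDT and 29.6% for rotenone among the lowest values and 48.1% for imidacloprid among the highest.

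Across the 7 libraries most members varied little. The SD of log2(FPKM + 1) over the 7 libraries had a median of 0.12 in the 27 genes, against 0.13 in all genes and 0.11 in the 3422 genes of the same range of levels. In 19 of the 27, or 70.4%, the highest library was less than 1.5 times the lowest, against 72.0% of all genes and 78.8% of those of the same range of levels. The spread reached 2-fold or more in 5 of the 27, or 18.5%, against 9.86% of all genes and 8.18% of those of the same range of levels, and these were Mzt2, Kif22, Spc25, Kif20a and Ccnb1. The steadiest were Hmmr, a spindle-associated hyaluronan receptor, at 20.2 to 23.2 FPKM, the spindle motor Kif11 at 31.3 to 36.0, cyclin B2 (Ccnb2) at 39.6 to 45.6 and Ube2c.

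Many promoters of mitosis genes carry a pair of elements, a CCAAT box bound by NF-Y and a cell cycle genes homology region (CHR) bound by the MuvB complexes, which keep the gene silent in resting cells and active in G2. Promoter windows from RefSeq on GRCm38.p6, each reaching from 250 bases before to 50 bases after a gene's start, were matched for 37 of the 45 members. A member's window was the one nearest its most used start, where a start was listed. For the shares of all windows and of kept genes, the first window given for each gene was taken instead. The effect of this difference in selection on the shares was not tested. The letters TTTGAA or TTCGAA, searched on both strands as the CHR, were in 29 of the 37 windows, or 78.4%, against 19.4% of all 27025 windows and 13.1% of the windows of 4918 genes kept for folds. CCAAT on either strand was in 27 of the 37 (73.0%), against 37.9% of all windows and 40.5% of those of kept genes, and at least 2 CCAAT were in 19 of the 37 (51.4%, against 12.2% and 16.2%). Both were in 25 of the 37 (67.6%), against 7.70% of all windows and 6.06% of those of kept genes. In 1 member a CHR match and a CCAAT match overlapped. These shares describe letters in a window and not binding. The windows of 7 genes are shown because their transcripts carry the results below, over the 170 bases from 140 before to 30 after the start, 5′ to 3′ on the gene's strand, with CCAAT (or ATTGG) and CHR matches in capitals.
Ccnb1: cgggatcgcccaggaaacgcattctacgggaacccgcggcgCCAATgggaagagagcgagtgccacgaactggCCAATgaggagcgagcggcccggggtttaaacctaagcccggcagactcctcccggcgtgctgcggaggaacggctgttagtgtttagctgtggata
Cdk1: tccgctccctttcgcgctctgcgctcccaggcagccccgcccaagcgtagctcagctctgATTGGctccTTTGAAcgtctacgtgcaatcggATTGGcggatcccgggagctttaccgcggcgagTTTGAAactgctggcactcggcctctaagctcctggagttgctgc
Cdc20: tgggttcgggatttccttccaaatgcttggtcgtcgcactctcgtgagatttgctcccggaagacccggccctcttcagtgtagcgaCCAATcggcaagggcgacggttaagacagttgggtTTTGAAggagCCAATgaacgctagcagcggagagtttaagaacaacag
Ube2c: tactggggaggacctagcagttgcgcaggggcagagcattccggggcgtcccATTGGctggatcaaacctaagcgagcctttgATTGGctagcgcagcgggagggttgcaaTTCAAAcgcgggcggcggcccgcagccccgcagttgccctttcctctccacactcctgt
Cenpf: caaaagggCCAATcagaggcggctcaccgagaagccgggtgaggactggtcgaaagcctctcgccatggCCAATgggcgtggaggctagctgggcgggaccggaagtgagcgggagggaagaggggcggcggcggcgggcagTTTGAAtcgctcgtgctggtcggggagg
Kif22: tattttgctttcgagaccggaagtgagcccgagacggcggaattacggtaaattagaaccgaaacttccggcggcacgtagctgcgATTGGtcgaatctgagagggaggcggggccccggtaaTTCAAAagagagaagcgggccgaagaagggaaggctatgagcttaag
Racgap1: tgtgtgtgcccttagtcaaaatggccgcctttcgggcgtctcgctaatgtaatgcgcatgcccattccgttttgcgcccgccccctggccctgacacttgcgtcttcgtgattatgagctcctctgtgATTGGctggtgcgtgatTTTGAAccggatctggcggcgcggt
On GRCm38 these are Ccnb1 at chr13:100786457-100786626 (minus strand), Cdk1 at chr10:69352883-69353052 (minus strand), Cdc20 at chr4:118437314-118437483 (minus strand), Ube2c at chr2:164769789-164769958 (plus strand), Cenpf at chr1:189688057-189688226 (minus strand), Kif22 at chr7:127042391-127042560 (minus strand) and Racgap1 at chr15:99651627-99651796 (minus strand). The window of Ccnb1 holds a pair of CCAAT boxes and no match to the CHR letters, whereas those of Cdk1, Cdc20, Ube2c, Cenpf, Kif22 and Racgap1 hold both kinds of match.

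Among the cyclins and their kinase, cyclin B1 varied most. Ccnb1 (ENSMUSG00000041431, chromosome 13, 100778650 to 100786570, minus strand), the cyclin whose rise and destruction time mitosis, was at 62.4 FPKM with chlorpyrifos, 30.3 with DDT, 44.3 with rotenone, 40.1 with carbaryl, 56.2 with deltamethrin and 34.5 with imidacloprid, against 60.3 in control. Chlorpyrifos and deltamethrin lay near control and the other 4 below it, with log2 differences of -0.97 for DDT, -0.79 for imidacloprid, -0.578 for carbaryl and -0.44 for rotenone. The carbaryl value lay just under 1.5-fold, and with a pseudocount of 0.1 FPKM it passed, which made 2 genes lower with carbaryl. The related cyclins did not share this spread. Ccnb2 was at 39.6 to 45.6 FPKM in the exposed libraries and 45.1 in control, and Ccna2 at 63.5 to 80.8 in the exposed libraries and 80.0 in control, lowest with chlorpyrifos (-0.33). The Cdk1 gene (ENSMUSG00000019942, chromosome 10, 69335146 to 69352938, minus strand), which encodes the kinase these cyclins activate, was higher than control in all 6 exposed libraries. It was at 25.2 FPKM with chlorpyrifos, 19.9 with DDT, 22.4 with rotenone, 26.0 with carbaryl, 32.8 with deltamethrin and 26.9 with imidacloprid, against 18.9 in control. The log2 difference was largest with deltamethrin, at 0.76, and 0.07 with DDT. Mki67, which coats mitotic chromosomes and is a standard marker of cycling cells, was at 43.1 FPKM with chlorpyrifos, 35.6 with DDT, 45.2 with rotenone, 42.7 with carbaryl, 48.9 with deltamethrin and 44.8 with imidacloprid, against 52.5 in control. All 6 exposed libraries lay below control, by 0.10 to 0.55 on the log2 scale. The start and end totals of Mki67 differed with DDT (26.6 and 44.5 FPKM) and with carbaryl (34.6 and 50.8). Control was at 52.5 for both totals. At the ends alone chlorpyrifos (43.1) was lower than DDT.

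**Figure D3:**
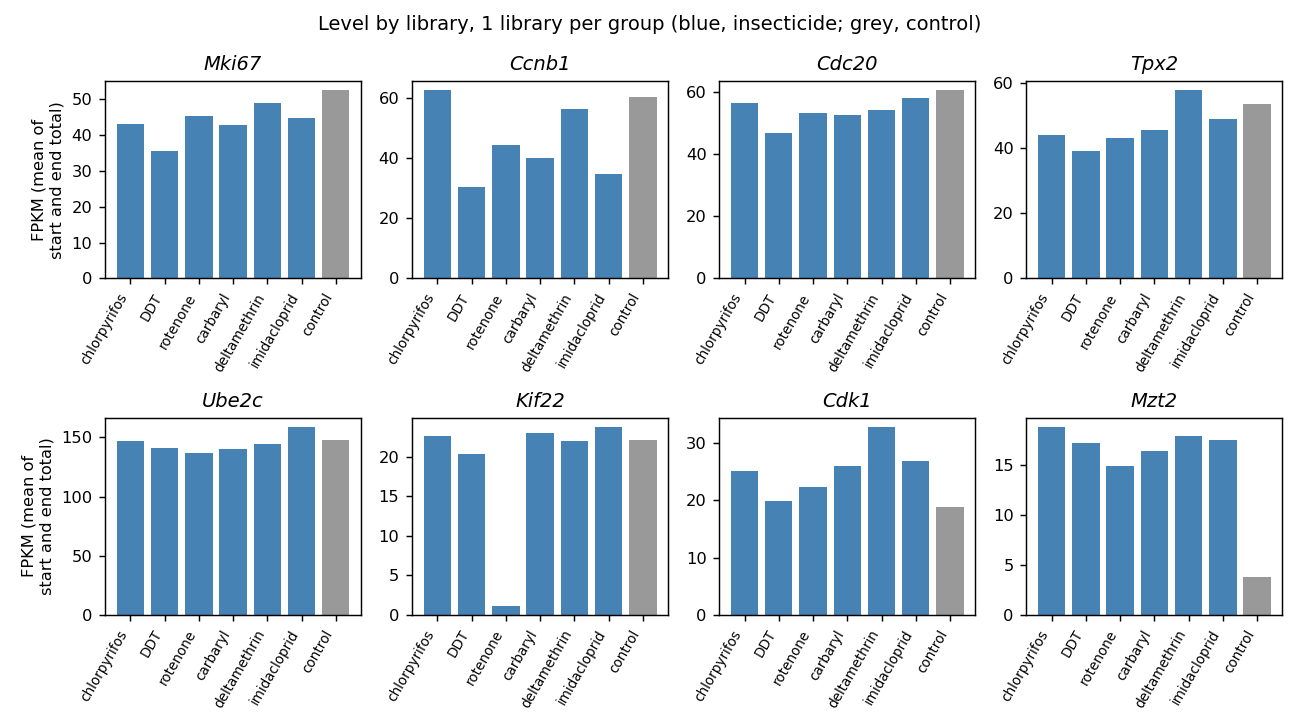
Level of 8 mitosis genes (vertical axes, FPKM, mean of the start and end totals, each axis from 0) in the 6 insecticide libraries (blue) and control (grey), with 1 library per bar and no error bars. Mki67 and Cdc20 are highest in control, Kif22 is at 1.13 FPKM with rotenone and 20.3 or more elsewhere, and Mzt2 is at 3.84 FPKM in control and 14.9 or more elsewhere.

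The mitotic kinases differed little. Aurora A (Aurka), which matures centrosomes, was at 28.6 to 33.9 FPKM in the exposed libraries and 34.7 in control, and was lowest with deltamethrin (-0.27). Plk1, which triggers mitotic entry and spindle assembly, was at 53.5 to 66.7 FPKM in the exposed libraries and 61.3 in control, lowest with rotenone (-0.19) and highest with imidacloprid (0.12). Ttk, the kinase that starts checkpoint signalling, was at 11.5 to 14.5 FPKM in the exposed libraries and 13.3 in control. All 3 were lower than control with rotenone and with deltamethrin, where 49.0% and 49.3% of all genes were lower. Of the passenger complex, which corrects faulty attachments, Birc5 alone was kept. It was at 64.9 to 78.2 FPKM in the exposed libraries and 65.4 in control, with its highest differences under imidacloprid (0.25) and DDT (0.22).

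Checkpoint genes and genes of the anaphase promoting complex were lower in 4 of 4 kept members with DDT and in 4 of 4 with rotenone. The shares of all genes that were lower were 47.6% and 49.0%. In each of the other 4 comparisons 1 to 2 of these 4 members were higher. Cdc20, the activator of the complex, was at 56.4 FPKM with chlorpyrifos, 46.7 with DDT, 53.3 with rotenone, 52.6 with carbaryl, 54.2 with deltamethrin and 57.9 with imidacloprid, against 60.5 in control. All 6 exposed libraries were below control and DDT was the lowest (-0.37). The checkpoint protein BubR1 (Bub1b) was at 30.4 to 36.8 FPKM in the exposed libraries and 35.6 in control, with -0.20 for DDT and -0.22 for rotenone. Its partner Bub3 was lowest with rotenone, at 44.4 FPKM against 50.5 in control. Ube2c was at 136.9 FPKM with rotenone, its lowest, and 158.6 with imidacloprid, its highest, against 148.1 in control.

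Kinetochore genes were lower in 5 of 5 kept members with DDT (47.6% of all genes) and in 4 of 5 with rotenone (49.0% of all genes). Their medians were -0.18 and -0.23. Spc25 (ENSMUSG00000005233, chromosome 2, 69193895 to 69206194, minus strand), a subunit of the NDC80 complex that grips microtubules, was at 12.7 FPKM with chlorpyrifos, 14.7 with DDT, 9.42 with rotenone, 5.59 with carbaryl, 10.2 with deltamethrin and 10.98 with imidacloprid, against 15.4 in control. Every exposed library was below control, with -1.32 for carbaryl and -0.66 for rotenone, and with -0.07 for DDT. Its closest partner Spc24, which had unequal ends and so no fold, had a lower start total than control in all 6 exposed libraries. With carbaryl, where Spc25 was lowest, Spc24 had its highest start total among the exposed libraries (10.9 FPKM, against 14.9 in control). The Spc24 end total with carbaryl was above control (10.8 and 10.2 FPKM). Ndc80 was at 15.5 to 20.6 FPKM in the exposed libraries and 19.5 in control, lowest with DDT (-0.31), and Nuf2 was at 34.9 to 43.4 FPKM and 38.7 in control, highest with rotenone (0.16). Cenpe (ENSMUSG00000045328, chromosome 3, 135212537 to 135273611, plus strand), the motor that brings chromosomes to the spindle equator, was at 13.2 FPKM with chlorpyrifos, 12.7 with DDT, 12.2 with rotenone, 14.2 with carbaryl, 7.80 with deltamethrin and 13.5 with imidacloprid, against 14.6 in control. Deltamethrin alone was at 1.5-fold or more below control (-0.82). That holds for the start and end totals. At a 156-base exon of Cenpe, the form with the exon was at 20.7 FPKM with deltamethrin, against 14.6 in control. Cenpf, a large protein of the outer kinetochore, was at 13.0 to 16.5 FPKM in the exposed libraries and 17.3 in control, lowest with rotenone (-0.39).

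**Figure D4:**
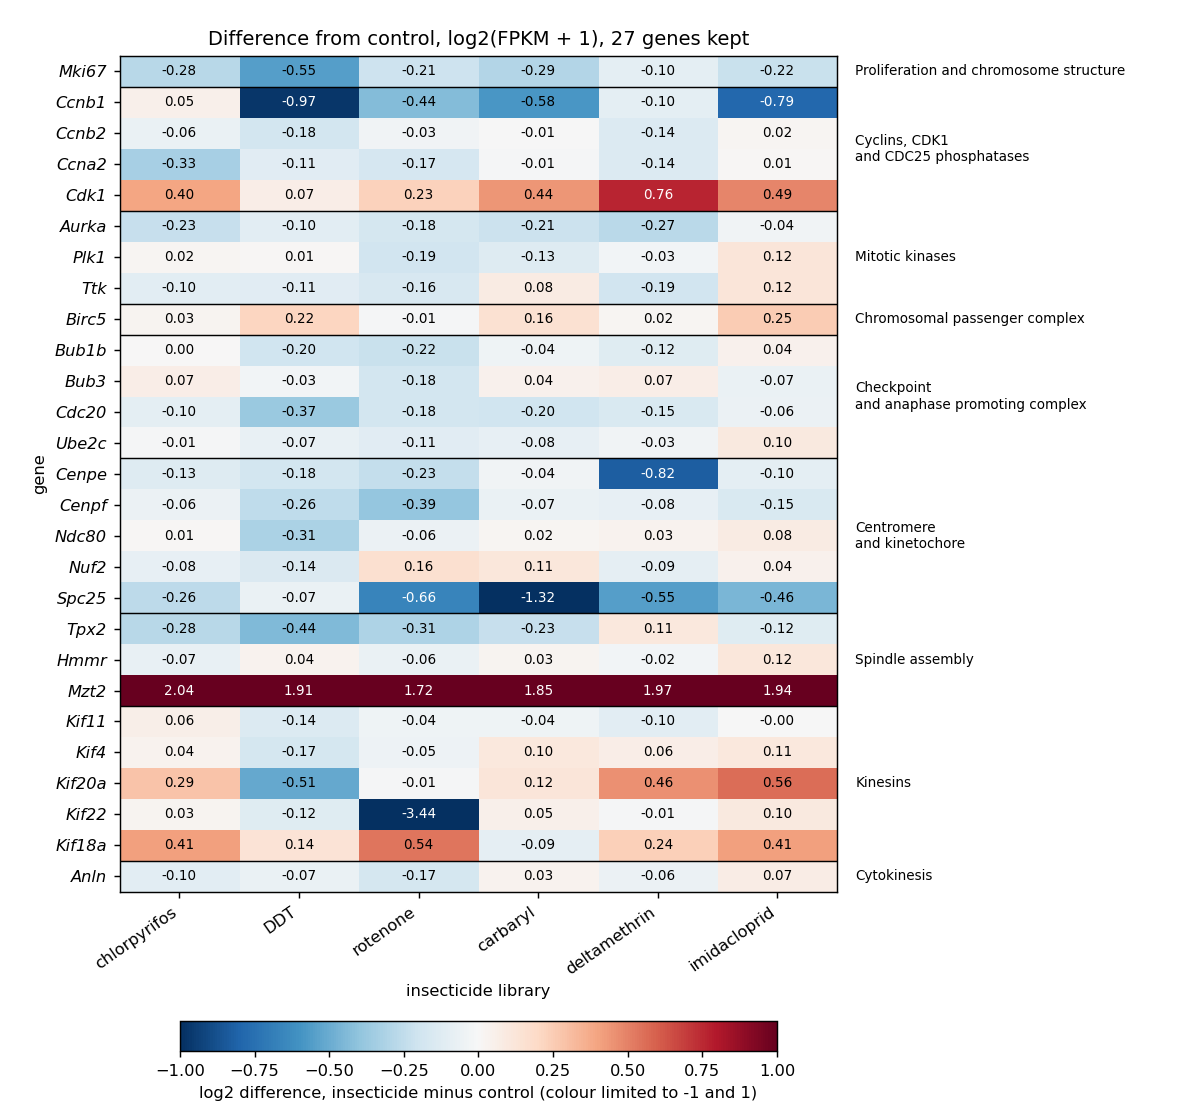
Log2 difference from control on the log2(FPKM + 1) scale for each of the 27 mitosis genes (rows, grouped by role) in each insecticide library (columns), printed in each cell; blue is lower and red higher than control, with colour limited to -1 and 1. Mzt2 is red in every column, Kif22 is -3.44 with rotenone alone, and pale blue cells prevail under DDT and rotenone.

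Spindle assembly factors held the value that was highest in every comparison. Mzt2 (ENSMUSG00000022671, chromosome 16, 15848441 to 15863369, minus strand), known in human cells as a small partner of the gamma-tubulin ring complex that seeds microtubules, was at 18.8 FPKM with chlorpyrifos, 17.2 with DDT, 14.9 with rotenone, 16.5 with carbaryl, 17.9 with deltamethrin and 17.5 with imidacloprid, against 3.84 in control. The 6 exposed libraries lay close together and control stood apart, so the 6 log2 differences of 1.72 to 2.04 rest on 1 library. Against the median of the 6 other libraries Mzt2 differed by -0.21 to 0.15. Tpx2, which activates Aurora A on spindle microtubules, was at 44.1 FPKM with chlorpyrifos, 39.3 with DDT, 43.0 with rotenone, 45.5 with carbaryl, 57.8 with deltamethrin and 49.1 with imidacloprid, against 53.6 in control. Deltamethrin was the only exposed library above control (0.11), and DDT was the lowest (-0.44). Hmmr differed from control by at most 0.12 in every comparison.

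Of the kinesins, Kif22 (ENSMUSG00000030677, chromosome 7, 127027729 to 127042471, minus strand), which pushes chromosome arms away from the poles, stood apart in the rotenone library. It was at 22.6 FPKM with chlorpyrifos, 20.3 with DDT, 1.13 with rotenone, 23.0 with carbaryl, 21.9 with deltamethrin and 23.7 with imidacloprid, against 22.1 in control. Its log2 difference from control was -3.44 with rotenone and -0.12 to 0.10 with the other 5 insecticides. Its main transcript end carried 0.624 FPKM with rotenone and 19.6 to 23.5 with the other insecticides, against 21.6 in control, while its most upstream end, a minor one, was at 0.781 FPKM with rotenone and 0.685 in control. Kif20a, a motor of the central spindle, was at 24.7 FPKM with chlorpyrifos, 13.8 with DDT, 19.9 with rotenone, 21.8 with carbaryl, 27.9 with deltamethrin and 30.01 with imidacloprid, against 20.1 in control. DDT lay below control (-0.51), and imidacloprid (0.56) and deltamethrin (0.46) above it. Kif18a, which limits the length of microtubules at the kinetochore, was at 7.02 to 11.4 FPKM in the exposed libraries and 7.53 in control, highest with rotenone (0.54). Kif11, which pushes the spindle poles apart, differed from control by at most 0.14 and Kif4, a chromosome-bound motor, by at most 0.17. Kinesins were higher than control in 5 of 5 kept members with chlorpyrifos and lower in 4 of 5 with DDT. The shares of all genes that were lower were 50.0% with chlorpyrifos and 47.6% with DDT. With chlorpyrifos Kif22 (0.03), Kif4 (0.04) and Kif11 (0.06) lay near control, and Kif20a was at 0.29 and Kif18a at 0.41. The cytokinesis scaffold anillin (Anln) was at 14.1 to 16.9 FPKM in the exposed libraries and 16.0 in control.

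The 18 members without a fold are given by their end totals. DNA topoisomerase II alpha (Top2a), which untangles sister chromatids, had a start total of 95.7 to 102.5 FPKM in the exposed libraries and 102.8 in control, and an end total of 148.9 to 169.9 FPKM in the exposed libraries, lowest with DDT, and 169.9 in control. Aurora B (Aurkb), the kinase of the passenger complex, had start totals of 28.5 to 39.8 FPKM in the exposed libraries and 17.3 in control, and end totals of 27.9 to 55.2 and 18.9. Control was the lowest of the 7 libraries at both ends. Racgap1, a part of centralspindlin, had start totals of 43.9 to 68.9 FPKM in the exposed libraries and 25.0 in control, and end totals of 23.8 to 45.8 and 8.49, again with control lowest. The kinetochore subunit Spc24 went the other way at its starts, with 2.05 to 10.9 FPKM in the exposed libraries and 14.9 in control. At its ends it was at 10.8 FPKM with carbaryl and 0.896 to 2.52 with the other 5 insecticides, against 10.2 in control. Kif23, the motor of centralspindlin, had start totals of 1.66 to 15.2 FPKM in the exposed libraries and 3.16 in control, and end totals of 6.54 to 16.2 and 16.5. The checkpoint kinase Bub1 had start totals of 18.6 to 23.6 FPKM in the exposed libraries and 22.6 in control, and end totals of 7.73 with chlorpyrifos to 17.0 with deltamethrin and 12.2 in control. For Cdc25c, a phosphatase that activates CDK1, start totals were 9.15 to 11.4 FPKM in the exposed libraries and 11.3 in control, and end totals 0.378 to 3.61 and 2.90.

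The next 10 members had end totals under 5% of their start totals on average (at most 5.14 FPKM, for Prc1 with DDT) or none, and are given by their start totals. The centromeric histone Cenpa was at 24.1 FPKM with deltamethrin, 34.4 with chlorpyrifos and 46.8 to 63.0 with the other 4 insecticides, against 60.1 in control. The midzone bundler Prc1 was at 25.7 FPKM with deltamethrin, 30.8 with chlorpyrifos, 31.1 with imidacloprid and 44.4 to 48.2 with the other 3 insecticides, against 49.2 in control. The phosphatase Cdc25b was at 9.14 to 21.2 FPKM in the exposed libraries and 16.9 in control, and the passenger protein Incenp at 28.7 to 36.9 and 26.2. The checkpoint protein Mad2l1 was at 24.4 to 29.8 FPKM in the exposed libraries and 29.1 in control, the spindle binder Nusap1 at 26.0 to 28.5 and 26.5, and the centriole kinase Plk4 at 14.6 to 17.1 and 15.3. The microtubule depolymeriser Kif2c was at 20.1 to 26.4 FPKM in the exposed libraries and 22.3 in control, the cytokinesis kinesin Kif20b at 5.07 to 8.93 and 7.47, and the RhoA activator Ect2 at 13.6 to 19.8 and 18.1. The passenger protein borealin (Cdca8), which had no start total, had an end total of 29.4 to 42.7 FPKM in the exposed libraries and 31.9 in control.

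The share of each transcript start differed between libraries in several members. Of the members, 19 had more than 1 start that reached 5% of the start FPKM, and in 10 of these the share of a start ranged over more than 20 percentage points across the 7 libraries. That is 52.6%, against 65.5% of the 5341 genes with several such starts and a mean start total of at least 1 FPKM. Tpx2 has a pair of main starts whose first exons end 188 bases apart on chromosome 2. The upstream start carried 25.7% of Tpx2 start FPKM with chlorpyrifos, 25.9% with DDT, 19.3% with rotenone, 21.3% with carbaryl, 73.1% with deltamethrin and 13.5% with imidacloprid, against 68.4% in control. Deltamethrin lay beside control, and in the other 5 libraries most Tpx2 start FPKM was at the downstream start. The upstream start of Racgap1, whose first exon ends 13869 bases before that of the other, carried 52.8% to 80.7% in the exposed libraries and 34.3% in control. In Mzt2, the start whose exon ends 475 bases downstream of the first carried 69.2% to 85.3% in the exposed libraries, at 12.2 to 14.1 FPKM, and 0.009% in control. The first Mzt2 start was at 2.43 to 5.81 FPKM in the exposed libraries and 3.32 in control, so the control total was lower at the second start. Ect2 has first exons that end 14 bases apart. The upstream of these carried 4.79% with chlorpyrifos, 3.08% with DDT, 88.6% with rotenone, 22.5% with carbaryl, 55.1% with deltamethrin and 1.32% with imidacloprid, against 86.0% in control. Starts this close share most of their sequence, and how the authors' estimate divides reads between them was not tested.

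**Figure D5:**
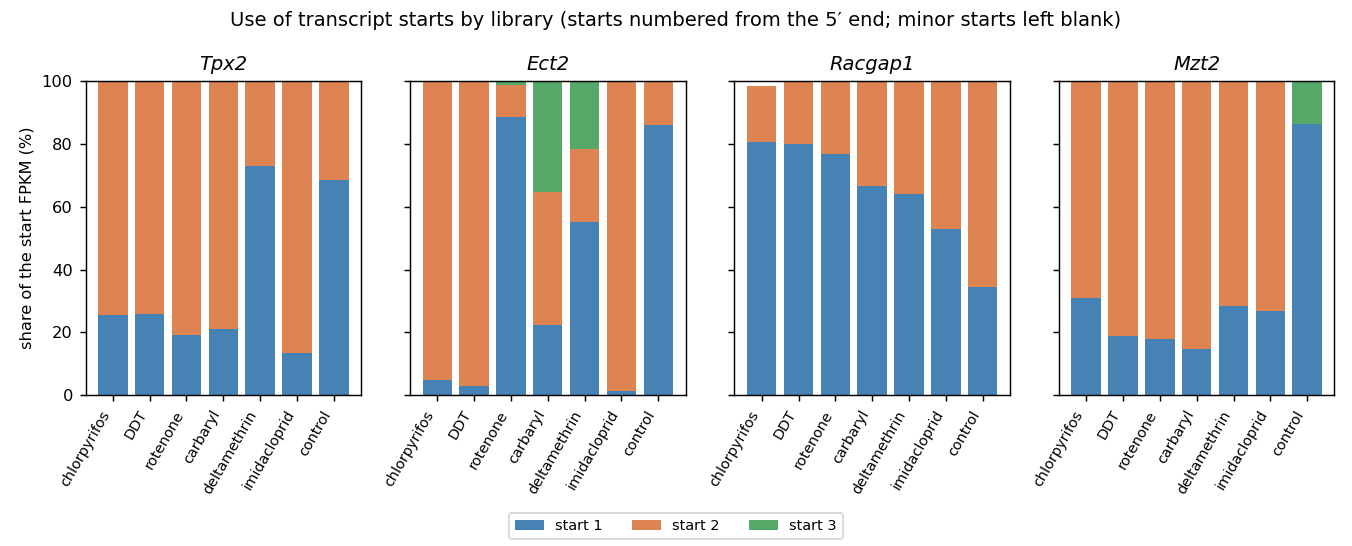
Share of a gene's start FPKM (vertical axis, %) at each of its main starts, numbered from the 5′ end, in the 6 insecticide libraries and control for Tpx2, Ect2, Racgap1 and Mzt2. Start 1 of Tpx2 is at 73.1% with deltamethrin and 68.4% in control and at 25.9% or less elsewhere, and start 2 of Mzt2 is all but absent in control.

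Ends and skipped exons also differed in share. The most distal of the 3 main ends of Kif23 carried 91.1% of its end FPKM with DDT, 93.0% with rotenone and 89.7% with deltamethrin and 32.9% to 44.0% with the other 3 insecticides, against 31.8% in control. A 312-base exon of Kif23 was included at 40.6% with DDT, 42.1% with rotenone and 38.7% with deltamethrin and at 7.99% to 19.7% with the others, against 15.8% in control, so the same 3 libraries stood apart at the end and at the exon. In Cenpa, a 137-base exon (chromosome 5, 30669692 to 30669828) was included at 11.8% with deltamethrin and 36.3% to 55.8% with the other insecticides, against 60.3% in control. A 42-base exon of Prc1 (chromosome 7, 80313527 to 80313568) was included at 24.0% with chlorpyrifos, 17.4% with DDT, 6.36% with rotenone, 38.6% with carbaryl, 28.7% with deltamethrin and 20.9% with imidacloprid, against 61.5% in control. A 93-base exon of Ect2 was at 44.0% with deltamethrin and 1.75% to 16.5% with the rest, against 2.40% in control, and a 131-base exon of Racgap1 was at 47.2% with rotenone and 1.33% to 19.3% with the rest, against 7.26% in control. A 102-base exon of Kif20b ranged from 13.1% with chlorpyrifos to 68.3% with imidacloprid, with 25.6% in control. Inclusion is the FPKM of the form with the exon as a share of both forms. Over 31 skipped exons in 22 members, the share ranged over more than 20 percentage points in 9, or 29.0%, against 31.8% of 5509 skipped exons of all genes, and under 5 points in 15, or 48.4%, against 36.4%.

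Genes of the same process outside the set were described in the same way. Of 104 other mitosis genes, 70 were kept. With DDT 51 of the 70 were lower, against 47.6% of all genes, with a median of -0.07. With rotenone 48 were lower, against 49.0% of all genes, with a median of -0.08. Deltamethrin had 42 lower (49.3% of all genes) with a median of -0.05 and chlorpyrifos 42 (50.0%) with a median of -0.02. Carbaryl had 38 lower (50.1%) with a median of -0.02, and imidacloprid had 35 lower (46.7%) and 35 higher. With DDT 4 of the 70 were lower by 1.5-fold or more and 3 were higher, against 3.38% and 3.4% of all genes. With rotenone 4 were lower and 0 higher, against 3.27% and 3.06% of all genes. With DDT the CENP-A chaperone Hjurp was at 16.5 FPKM against 44.5 in control (-1.38), securin (Pttg1) at 4.07 against 12.3 (-1.39), the anaphase promoting complex subunit Anapc11 at 10.8 against 30.7 (-1.43) and the microtubule polymerase Ckap5 at 26.7 against 41.4 (-0.61). Those higher with DDT were the anaphase promoting complex subunits Anapc2, at 38.0 FPKM against 18.7 in control (0.98), and Anapc10, at 6.14 against 2.86 (0.89), and Tubgcp3 of the gamma-tubulin ring complex, at 18.9 against 11.8 (0.63). Ckap5, Anapc10 and Tubgcp3 were chosen after their values were seen, to complete the count. With rotenone another subunit, Cdc23, was at 10.2 FPKM against 23.5 in control (-1.13), the augmin subunit Haus3 at 4.92 against 10.98 (-1.02), the activator Fzr1 at 15.6 against 28.6 (-0.84) and the spindle factor Tacc3 at 26.99 against 47.4 (-0.79). Of 45 genes of DNA replication and S phase, 34 were kept, and 22 were lower with rotenone (median -0.12) and 17 with DDT (median -0.02). Of 19 G1 cyclins and CDK inhibitors 14 were kept, with medians of 0.02 to 0.06 over the 6 comparisons, and of 17 condensin and cohesin genes 10 were kept, with medians of -0.08 to 0.02. Of 19 targets of p53, the regulator that can halt the cycle, 11 were kept, with medians of 0.04 to 0.19.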

How the data were processed

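Each deposited file lists FPKM per transcript-structure event of 1 library, per the file headers, and events at 0 are not listed. The authors' FPKM was not rescaled. The submitters' processing notes name HISAT2 2.0.1, cutadapt 1.9.1, bcl2fastq 2.17.1.14 and the build GRCm38. The sources used here do not give the tool behind the event tables. Repeated lines (1973 to 2078 per library) were dropped, and start and end FPKM were summed by the Ensembl identifier on each line. Where 1 end held less than 5% of the FPKM of its counterpart, it was taken as missing. Of all genes, 2011 had ends that disagreed, 2157 a missing end, 149 a missing start and 3025 were low. The pseudocount was 1 FPKM, no fold was given against a value listed at 0, and the fold threshold was 1.5. Such folds understate the change of low genes. The lowest listed value was 1e-06 FPKM, so values are estimates, depth is unknown and no interval is given.

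Sample titles gave the groups, and all 7 libraries were used. Each insecticide was compared with control, and all 21 pairs of libraries were taken. Each insecticide comparison names the members at 1.5-fold or more and the 3 highest and 3 lowest folds. From another list it names at most 4 genes, apart from Ckap5, Anapc10 and Tubgcp3, which were added with DDT. Marker genes were matched by annotated exon boundary (GENCODE M21), since merged loci can carry a neighbour's identifier. The members and all lists were chosen with earlier results of these data known. The summing of starts and ends and the folds were checked on copies of the control library with known folds and small added noise. Start shares, exon shares, markers and promoter windows were not part of that check. Python 3.11.15, pandas 2.3.3, NumPy 2.4.6 and matplotlib 3.10.9 were used.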

Additional observations from a re-analysis of the deposited data

How the results depend on the processing

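No paired analysis was possible because each group has 1 library. Over 10 alternatives (a pseudocount of 0.1 FPKM, a mean of at least 5 FPKM, no filter on low values, ends within 0.5, no filter on ends, start or end events alone, all genes centred at 0, matching by exon boundary, and the median of the 6 other libraries in place of control) the median stayed below 0 in all 10 for DDT (-0.14 to -0.12), rotenone (-0.17 to -0.06) and deltamethrin (-0.06 to -0.03), and above 0 in all 10 for imidacloprid (0.02 to 0.11). For chlorpyrifos it ran from -0.03 to 0.03 and for carbaryl from -0.04 to 0.02. Not all of the 10 could move the median. The kept members all averaged 9.14 FPKM or more. A mean of at least 5 FPKM and no filter on low values therefore kept the same 27 members with the same medians. Centring only took off the median of all genes, which was 0.01 for DDT, rotenone and imidacloprid. Start events alone gave rotenone 65.9% of 44 members lower, and the median of the other libraries gave imidacloprid 14.8% lower. With that median as the point of comparison, Mzt2 was at -0.21 for rotenone and -0.069 for carbaryl, both reversed, and at 0.15, 0.02, 0.08 and 0.05 for chlorpyrifos, DDT, deltamethrin and imidacloprid. Spc25 with rotenone (-0.30), Cdk1 with deltamethrin (0.45) and Ccnb1 with imidacloprid (-0.52) were then under 1.5-fold. Control was the lowest library for Mzt2 and Cdk1 and the highest for Spc25. Ccnb1 was higher with chlorpyrifos (62.4 FPKM) than in control (60.3). The cause was not tested, either for the 2 shares of members lower or for the single genes. Unknown depth limits how firmly low genes can be read.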
